A study of Drosophila melanogaster with 2 samples.

Results

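The peaks described here are weak promoter peaks from chromatin immunoprecipitation of the Drosophila transcription factor Hand, those that the authors' reproducibility threshold left out. The authors label the pooled list that holds them as peaks and background, so a member need not be a site of Hand binding. Which members are background was not tested. They were chosen by their place in the deposited lists on the dm6 genome build. A peak of the list called on pooled reads was kept where its position was absent from the thresholded list and its summit stood at most 500 bp from a transcription start site (TSS) of a protein-coding gene. Of 30000 pooled peaks, 26688 were below the threshold, and 6926 of these (26.0%) met the rule. They were compared with 1643 thresholded promoter peaks, placed by the same rule, and with 19762 weak peaks farther from any TSS.

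Whole embryos of both sexes were used, aged 6 to 24 hours, from flies with a transgene for Hand that carries GFP at its C terminus and is stably expressed. Chromatin was sheared to 200 to 800 bp, immunoprecipitated with an antibody to GFP and sequenced. All libraries were of this 1 group, with 2 biological replicates that the labels number 2 and 3. No control library was among the samples, so nothing could be compared between conditions. In whole embryos, signal from cells that express Hand is diluted by all other cells, and a weak peak in many cells cannot be told apart from a strong peak in few.

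In the fly, Hand acts in the heart, the pericardial cells, the lymph gland and the visceral muscle. Factors of its class, basic helix-loop-helix, bind E-box sequences as pairs, often with the broadly expressed partner Daughterless. A promoter is where the transcription machinery assembles. Fly promoters differ in the short elements that mark them, such as the TATA box and the initiator, and the sites of DREF, M1BP and BEAF-32, which are frequent at genes active in most cells.

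The signal of a peak is a value that the authors' peak caller assigned, and it ranks peaks within a list only. The read depth behind it is unknown. Each replicate had its own list of 30000 peaks, and a pooled summit was said to recur where a replicate's summit lay within 100 bp. In a 90-kb window centred on the Hand gene, replicate 2 had 4 peaks and replicate 3 had 36. The mean for a window of that length was 20.2 peaks. The pooled list had 16 peaks there, and 10 of these were weak promoter peaks, against 6926 of all 30000 pooled peaks. Whether the tagged Hand was present in the replicate 2 library was not tested, and values are given for each replicate's own list as well. In those lists, weak means below rank 3310, the length of the thresholded list, and strong means at or above it.

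The summit sequences of a few members are shown first, since they display the core promoter elements and the base composition that later results turn on. Each is the 101 bp centred on the summit, read from the dm6 RefSeq sequence on the strand of the nearest gene, 5′ to 3′. Windows with over 30 bases of an annotated UTR are not printed. The DRE, the site of the factor DREF, and the M1BP site were the words with the highest ratio of weak promoter summits to their flanks in the pooled list, 1.72 and 1.63, and the strongest printable members with them are given with the element in capitals. Rop (chr3L:4138967-4139067, summit 21 bp upstream of the TSS), a syntaxin-binding protein gene, and CG4101 (chr3L:16612390-16612490, 46 bp upstream) held a DRE. CG7156 (chr3R:18242140-18242240, 31 bp upstream) and CG42637 (chr3L:19793574-19793674, 55 bp upstream) held an M1BP site, which in CG42637 was on the opposite strand.
Rop: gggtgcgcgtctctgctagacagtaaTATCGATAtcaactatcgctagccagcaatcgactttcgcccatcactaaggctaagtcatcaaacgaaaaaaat
CG4101: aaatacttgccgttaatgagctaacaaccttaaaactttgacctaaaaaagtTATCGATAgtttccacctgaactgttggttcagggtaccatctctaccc
CG7156: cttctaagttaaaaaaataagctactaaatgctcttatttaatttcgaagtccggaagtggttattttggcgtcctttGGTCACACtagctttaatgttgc
CG42637: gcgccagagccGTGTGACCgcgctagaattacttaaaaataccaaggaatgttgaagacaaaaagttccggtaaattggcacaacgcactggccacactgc

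All 4 of these peaks recurred in both replicates. Rop had a pooled signal of 91.9 (21.1 in replicate 2 and 51.3 in replicate 3), CG4101 had 89.9 (35.3 and 57.4), CG7156 had 89.1 (47.0 and 35.2) and CG42637 had 81.7 (31.0 and 43.5). Each replicate's signal is on the scale of its own list, so replicates are compared by rank, where 1 is the strongest peak of a list. Rop stood at rank 10757 in replicate 2 and 4383 in replicate 3, and CG7156 at 2064 and 8284. The ranks lay closer at CG4101, with 3695 and 3614, and at CG42637, with 4857 and 5862.

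The next windows set the strongest weak promoter peak, at CG2003 (chr3R:31977658-31977758, 413 bp upstream), beside a thresholded promoter peak at CG31145 (chr3R:23669794-23669894, 185 bp upstream), the strongest printable one with a TATA box. The capitals mark that word, on the opposite strand, and none is marked at CG2003. Both windows were 69.3% A or T. The pooled signal was 92.5 at CG2003, found in replicate 3 alone at 64.7, and 933 at CG31145, with 305 in replicate 2 and 628 in replicate 3.
CG2003: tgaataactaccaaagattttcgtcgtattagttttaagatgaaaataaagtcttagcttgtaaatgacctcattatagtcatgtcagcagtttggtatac
CG31145: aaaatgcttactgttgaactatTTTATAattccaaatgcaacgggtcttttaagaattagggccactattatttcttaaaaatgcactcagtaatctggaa

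The rule fixed the range of pooled signal, which is a description and not a finding. Weak promoter peaks ran from 24.2 to 92.5, with a median of 42.3 and quartiles at 31.4 and 59.3, and thresholded promoter peaks from 92.5 to 1857 with a median of 140.0. The −log10 q-value of the weak promoter peaks ran from 0.175 to 2.99, with a median of 0.728, against a median of 3.74 for thresholded promoter peaks. Low values mean weak statistical evidence for a peak. Just below the threshold stood CG2003 at 92.48, chinmo, which codes for a BTB zinc-finger factor of neurons and stem cells, at 92.47 and DCP2, the mRNA decapping enzyme gene, at 92.42. Just above it stood alt at 92.55, elB at 92.56 and RpS9 at 92.58. Away from promoters the weak peaks had a median of 33.4.

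Replicates shared some weak promoter peaks and not others. A summit recurred in both replicates' lists for 2485 of the 6926 (35.9%, 95% Wilson interval 34.8 to 37.0), in replicate 2's list alone for 1255 (18.1%), in replicate 3's alone for 2515 (36.3%) and in neither for 671 (9.69%). Over all pooled peaks the share in both was 36.9%, so the weak promoter peaks as a whole lay near that background. The share was 90.0% for thresholded promoter peaks and 28.1% (27.5 to 28.8) for weak peaks elsewhere. These lists also set the threshold, so the shares describe the rule as much as the peaks.

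Recurrence was higher in each bin of pooled signal than in the bin below, with the weak promoter peaks in 10 bins of 692 or 693. In the weakest bin, with signal up to 26.9, 2.89% recurred in both lists (1.88 to 4.42). In bin 5 the share was 30.3%, and in the strongest bin, from 74.9 to 92.5, it was 75.3% (72.0 to 78.4). Thresholded promoter peaks were set in 4 bins of 410 or 411, and the lowest of these had 83.5%. Pooled signal is made from the replicates' reads, so the 2 measures are not independent.

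**Figure D1:**
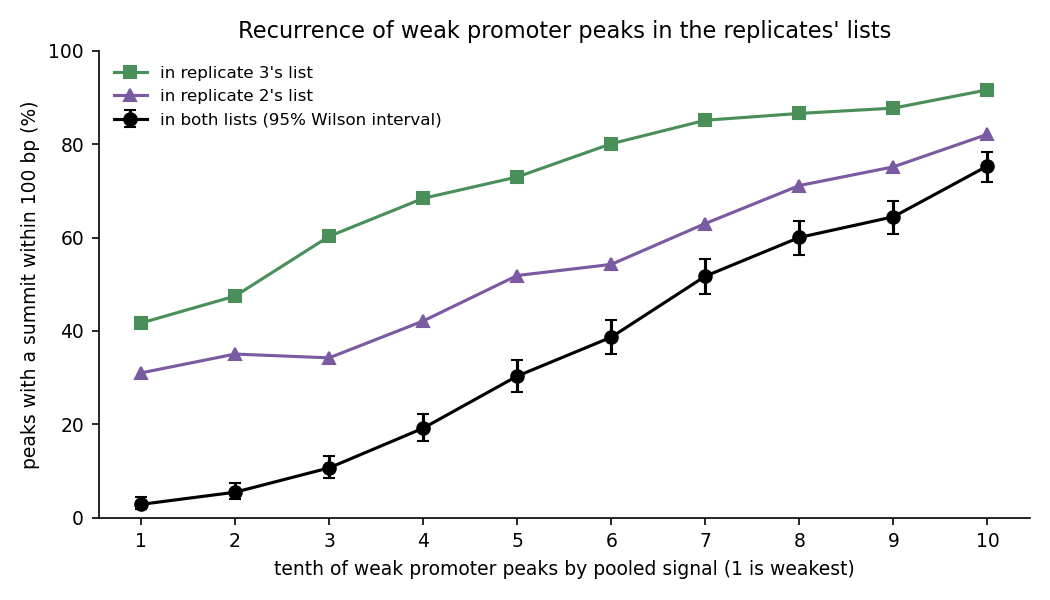
Share of weak promoter peaks with a summit within 100 bp in each replicate's list and in both (vertical axis, %), by bin of pooled signal (horizontal axis, 10 bins, 1 is weakest). Recurrence in both lists went from 2.89% in the weakest bin to 75.3% in the strongest, and replicate 3 lay above replicate 2 in each bin.

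Members that recurred in both lists had a median signal of 22.4 in replicate 2 and 32.4 in replicate 3. Their replicate signals were only loosely related, with a Spearman rho of 0.16 across 2485 peaks (Pearson r of 0.15 on log2 signal), against 0.68 for 1479 thresholded promoter peaks and 0.33 for 5559 weak peaks elsewhere. The rule narrows the range of the pooled signal, the lists share a control, and peaks are not replicates, so these values are descriptions. Among matched members, 322 of 3740 (8.61%) stood among the 3310 strongest peaks of replicate 2 and 229 of 5000 (4.58%) among those of replicate 3, and 7 stood among both.

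Single promoters stood at like ranks in both replicates or far apart. The chinmo peak, 32 bp downstream of the TSS, had a signal of 40.6 in replicate 2 and 66.5 in replicate 3, at the like ranks of 2775 and 2767. At mys, which codes for the beta-PS integrin subunit, the signals were 34.6 and 68.8 and the ranks 3854 and 2612. At Su(z)12, a Polycomb group gene, the signals were 36.5 and 54.4 and the ranks 3413 and 3983. Some of the strongest members rested on replicate 3 alone, such as Fibp at 82.7, and CG6765 rested on replicate 2 alone at 43.5. For Unr, an RNA-binding protein gene of dosage compensation, replicate 2 had 17.0 at rank 16899 and replicate 3 had 75.3 at rank 2236. Among the other members of the 15 strongest were CG1523, the importin gene Karybeta3, the tubulin gene betaTub56D, the translation factor gene kra, sd, which codes for the TEAD factor Scalloped, and the tetraspanin gene Tsp42Ef, with pooled signals from 92.1 to 92.4. At the other end, the 5 weakest members were at CG11560, CG3156, blow, CG15611 and CG13220, with pooled signals of 24.23 to 24.25. None of these 5 had a match in replicate 2, and 4 had one in replicate 3, with signals between 16.7 and 27.0.

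The members with the highest lower one of their replicate signals often stood beside a stronger peak. This order sets the signals of both lists side by side, although each list has its own scale. Of the 10 so ranked, Alp12 (pooled 56.6, replicates 80.3 and 210), CG8132, Bcat, aos, CG10343 and SP2353 had a thresholded summit 201 to 234 bp away. At aos, which codes for a secreted inhibitor of the EGF receptor, the replicate signals were 73.9 and 50.6. The other members, CG5065, Obp99b, cpx and CG13954, lay at least 1536 bp from a thresholded summit. At cpx, the complexin gene of synapses, replicates 2 and 3 had 48.1 and 46.9, at ranks 1965 and 5175. At the odorant-binding protein gene Obp99b they had 47.5 and 49.99, at ranks 2014 and 4596. The replicate values come from a summit of that replicate's list within 100 bp, and whether it is the same site as the pooled summit was not tested.

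In all, 893 weak promoter peaks (12.9%, 12.1 to 13.7) lay within 1000 bp of a thresholded summit, against 6.84% (6.49 to 7.20) of weak peaks elsewhere. These 893 were unevenly spaced. From 200 to under 250 bp there were 389, from 250 to under 500 bp only 62, and the smallest distance was 199 bp. Peaks almost all had 1 width, 436 bp for 6923 of 6926, so neighbours at 200 bp overlap. The median distance to a thresholded summit over all members was 8117 bp.

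Weak promoter summits lay on both sides of the TSS in equal parts, where thresholded promoter summits lay mostly upstream. Of the weak summits, 49.9% were upstream (48.8 to 51.1), at a median signed distance of 0 bp, and of the thresholded ones 72.4% were (70.2 to 74.5), at a median of −100 bp. In the replicates' own lists the weak share was 47.6% in replicate 2 and 50.6% in replicate 3, a mean of 49.1% ± 2.09 (SD, n = 2), and the strong share was 69.5% and 72.5%, a mean of 71.0% ± 2.13. Weak minus strong was −21.9 percentage points ± 0.0368 (SD, n = 2), larger than the spread between replicates. With 2 replicates an exact sign-flip test, two-sided, has 0.5 as its smallest possible p and was not run.

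The difference was of like size at promoters with start sites on 1 strand only, where 49.7% of 5676 weak and 72.1% of 1229 thresholded summits were upstream. In other subsets only the weak share was taken. Among weak members with no thresholded summit within 1000 bp, 50.9% were upstream, and among those that recurred in both replicates 52.5% were. The intervals treat peaks as independent, which neighbours are not.

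**Figure D2:**
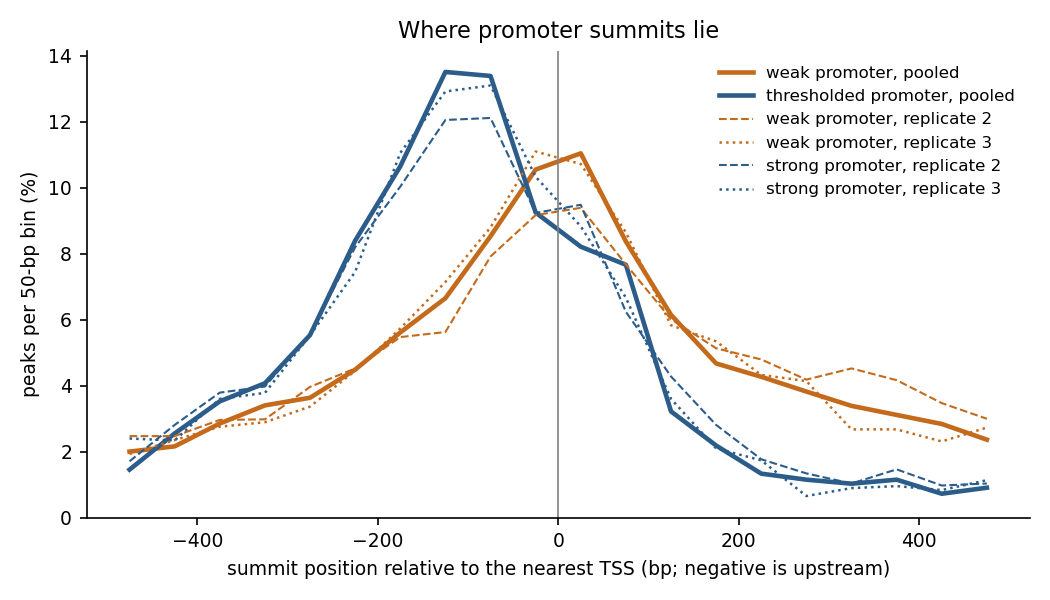
Distribution of promoter summits around the nearest TSS (horizontal axis, bp, negative is upstream; vertical axis, % of peaks per 50-bp bin), for the pooled list (thick lines) and each replicate's own list (thin lines). Weak promoter summits peak at the TSS with 11.0% in the first 50 bp downstream, and thresholded ones peak upstream with 13.5% between 150 and 100 bp before the TSS.

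Weak summits lay slightly farther from the TSS. Their median distance was 144 bp against 133 bp for thresholded summits, and in the replicates' own lists it was 155 ± 20.5 bp for weak and 137 ± 4.60 bp for strong peaks (SD, n = 2), a difference of 17.2 ± 15.9 bp, little more than its spread. Within 50 bp of the TSS lay 21.8% of weak (20.9 to 22.8) and 17.5% of thresholded summits (15.7 to 19.4). Over the replicates these shares were 20.4% ± 2.25 and 19.1% ± 0.226 (SD, n = 2), a difference of 1.35 percentage points ± 2.03 that was smaller than its spread.

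The gene parts under the summits differed accordingly. The 5′ UTR held 32.6% of weak promoter summits (31.5 to 33.7) against 26.4% of thresholded ones (24.3 to 28.5), and regions outside genes held 28.2% against 41.2%. Coding exons held 815 weak summits (11.8%, 11.0 to 12.5) against 12 thresholded ones (0.730%, 0.418 to 1.27). By replicate, coding exons held 15.5% and 11.0% of weak and 1.96% and 0.962% of strong summits, a mean difference of 11.8 percentage points ± 2.47 (SD, n = 2). Introns held 25.6% of weak and 30.9% of thresholded summits. Where transcripts overlap, a summit was given to coding exons first, then to UTRs.

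Position and gene part changed with signal on both sides of the threshold. The upstream share was 44.2% (40.5 to 47.9) in the weakest of the 10 bins of weak promoter peaks and 58.2% (54.4 to 61.8) in the strongest. It went on to 63.5%, 67.9%, 73.7% and 84.4% in the 4 bins of thresholded promoter peaks. Coding-exon summits went the other way, from 22.4% in the weakest bin to 4.18% in the strongest weak bin and 0.243% in the top thresholded bin. Median distance to the TSS fell from 192 bp to 109 bp over the weak bins and was 102 to 164 bp in the thresholded bins. The 200 members just below the threshold and the 200 thresholded promoter peaks just above it had overlapping intervals, with 63.5% (56.6 to 69.9) and 60.0% (53.1 to 66.5) upstream.

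**Figure D3:**
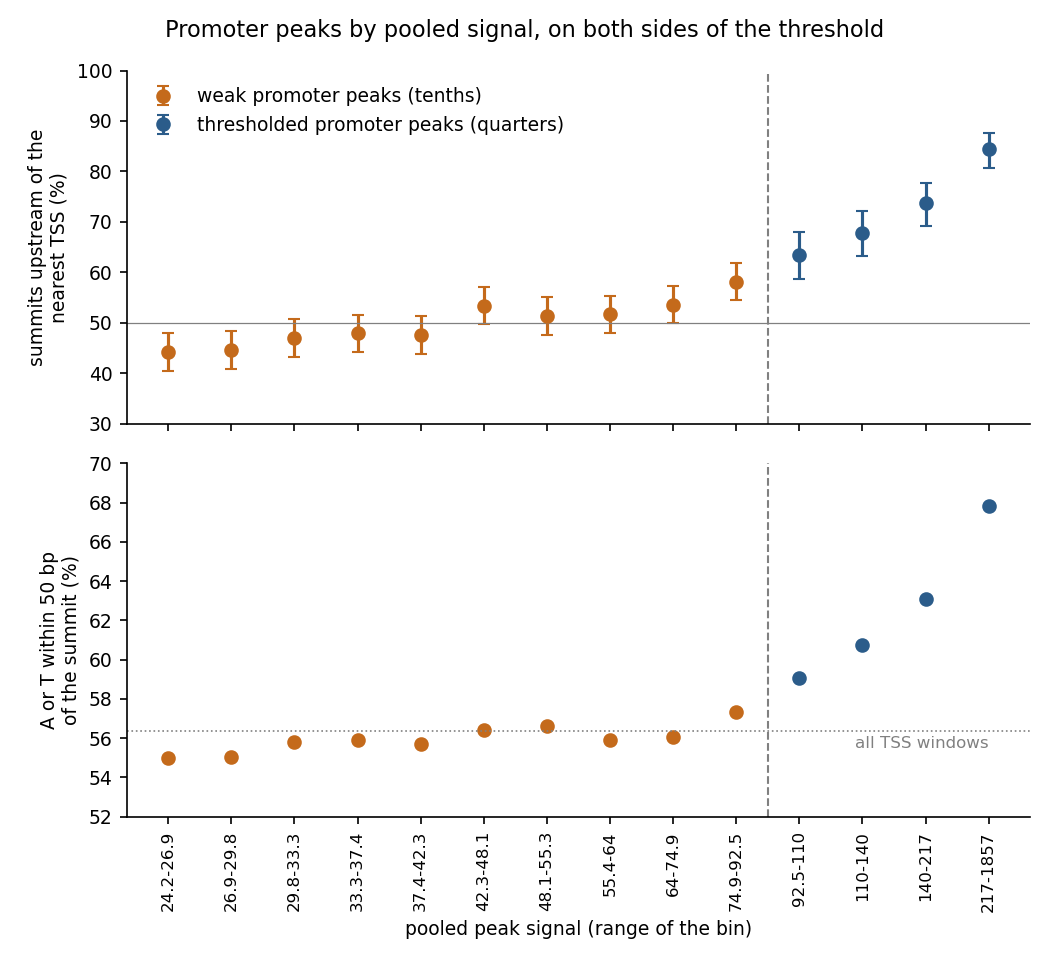
Share of promoter summits upstream of the nearest TSS (top, %, bars are 95% Wilson intervals) and A or T share within 50 bp of the summit (bottom, %) in bins of pooled signal, with the threshold as a dashed line. The upstream share goes from 44.2% to 58.2% over the weak bins and from 63.5% to 84.4% over the thresholded bins, and the A or T share goes from 55.0% to 57.3% and from 59.1% to 67.8%.

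Base composition followed the same order. Within 50 bp of the summit, weak promoter peaks had 56.0% A or T, their flanks 400 bp to the left 57.0%, and windows on all 19252 TSSs 56.3%. Thresholded promoter summits had 62.7%, above their own flanks at 56.2%. The replicates had 55.6% and 56.4% at weak and 61.1% and 62.7% at strong promoter summits of their own lists, a mean difference of −5.86 percentage points ± 0.613 (SD, n = 2). On either side of the threshold, the 200 nearest promoter peaks had 57.8% and 57.9%. Weak peaks elsewhere had 57.3%.

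Words were sought in the same windows on both strands. They were the E-box (CANNTG) and its forms for Hand with Daughterless (CATCTG), for core promoters (CAGCTG), for Myc-class factors (CACGTG) and for Twist (CATATG), all of which the general E-box includes. The DRE (TATCGATA) includes the BEAF-32 word (CGATA). Other promoter words were the M1BP site (GGTCACAC), that of the GAGA factor (GAGAG), the TATA box (TATAAA) and the initiator (TCAGT). The rest were those of Zelda (CAGGTAG), of the GATA factors (AGATAA), forkhead factors (TAAACA), Mef2 (TATTTATA), ETS factors (CCGGAAG), Tinman (CACTTGA), T-box factors (GGTGTGA), AP-1 (TGACTCA) and Grainyhead (AACCGGTT). A word in a window is a match of letters and not a site of binding.

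Of the 20 words, 13 were in a higher share of weak promoter summits than of their flanks, and for 5 the intervals were apart. These 5 were the DRE at 1.66% against 0.967%, the M1BP site at 1.57% against 0.967%, the BEAF-32 word at 16.8% against 14.1%, the initiator at 19.6% against 16.4% and the GAGA word at 15.8% against 12.9%. Windows on all TSSs had more of the first 4, with 4.48% for the DRE, 4.68% for the M1BP site, 23.6% for the BEAF-32 word and 31.7% for the initiator, and less of the GAGA word, with 12.7%. The flank windows also lay farther from a TSS. Their median distance was 308 bp, and 10.8% of them were centred within 50 bp of one, against 144 bp and 21.8% for the summits. The part of that distance in the word shares was not tested. In the replicates' own lists the intervals of summits and flanks stayed apart in both for the BEAF-32 word, the initiator and the GAGA word. The DRE was apart in replicate 3, at 2.14% against 1.02%, and overlapped in replicate 2, at 1.36% against 1.07%. The ETS word, whose pooled intervals overlap at 0.751% against 0.520%, was apart in replicate 2's list with the highest ratio there, 2.08 (0.848%, 0.644 to 1.12, against 0.407%, 0.274 to 0.605), and overlapped in replicate 3's with a ratio of 1.08. With 25 bp on each side of the summit its ratio was 1.89 against 1.47 for the DRE. The M1BP site overlapped in both lists, at 1.41% against 0.9496% and 1.61% against 1.15%.

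The DRE and the M1BP site were not separable between weak and thresholded promoter peaks. The DRE was at 1.95% of thresholded promoter summits (1.38 to 2.74) and the M1BP site at 0.974% (0.600 to 1.58), both with intervals that overlap those of the weak summits. In the replicates' own lists, weak minus strong was 0.112 percentage points ± 0.317 for the DRE and 0.355 ± 0.416 for the M1BP site (SD, n = 2), each within the spread. The same difference was 1.51 ± 0.900 for the initiator and 1.34 ± 1.16 for the BEAF-32 word, both larger than their spread, and −1.22 ± 2.22 for the GAGA word, which was not. At weak peaks elsewhere the DRE was at 0.152% and the M1BP site at 0.182%.

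The TATA box was the word that differed most in share between weak and thresholded promoter summits in percentage points. It was at 11.1% of weak summits (10.3 to 11.8) and 12.2% of their flanks, and at 20.7% of thresholded summits (18.8 to 22.7) against 12.1% of their flanks. By replicate it was at 10.8% and 11.2% of weak and 17.8% and 21.8% of strong summits, a difference of −8.78 percentage points ± 2.53 (SD, n = 2). The word is made of A and T only, and A or T content differed in the same direction, as given above; the part of composition was not tested. The A- and T-rich Mef2 word was at 2.12% of weak and 4.26% of thresholded summits.

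The general E-box and the form for Hand with Daughterless had overlapping intervals at weak promoter summits and beside them. The general E-box was at 41.3% of summits (40.1 to 42.4) and 40.2% of flanks (39.0 to 41.3), and the form for Hand with Daughterless at 4.04% and 3.90%. The core-promoter form was at 6.47% and 5.63%, with overlapping intervals. In replicate 2's own list its intervals were just apart, at 7.07% (6.445 to 7.754) against 5.82% (5.247 to 6.443), and in replicate 3's they overlapped, at 6.52% against 5.65%. Windows on all TSSs had 43.7% and 3.92%. Thresholded promoter summits had fewer general E-boxes, 34.5% (32.2 to 36.8). They also had fewer of the form for Hand with Daughterless, 2.68% (2.00 to 3.58) against 4.04% (3.60 to 4.53) of weak summits. In the replicates' own lists the weak share of the general E-box was 40.9% ± 0.910 and the strong share 36.0% ± 0.0338, a difference of 4.94 percentage points ± 0.876 (SD, n = 2). For the form for Hand with Daughterless these were 4.21% ± 0.0991 and 2.88% ± 0.166, a difference of 1.33 ± 0.265. A or T content also differed between these sets, and its part was not tested. The words of other heart regulators had overlapping intervals at summits and flanks, with the Tinman word at 1.69% of both, the GATA word at 5.70% against 5.50%, the T-box word at 0.996% against 0.736% and the Mef2 word at 2.12% against 2.27%. The T-box word is rare, and its ratio of 1.35 stayed above 1 in all 5 alternatives, from 1.18 to 1.48.

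**Figure D4:**
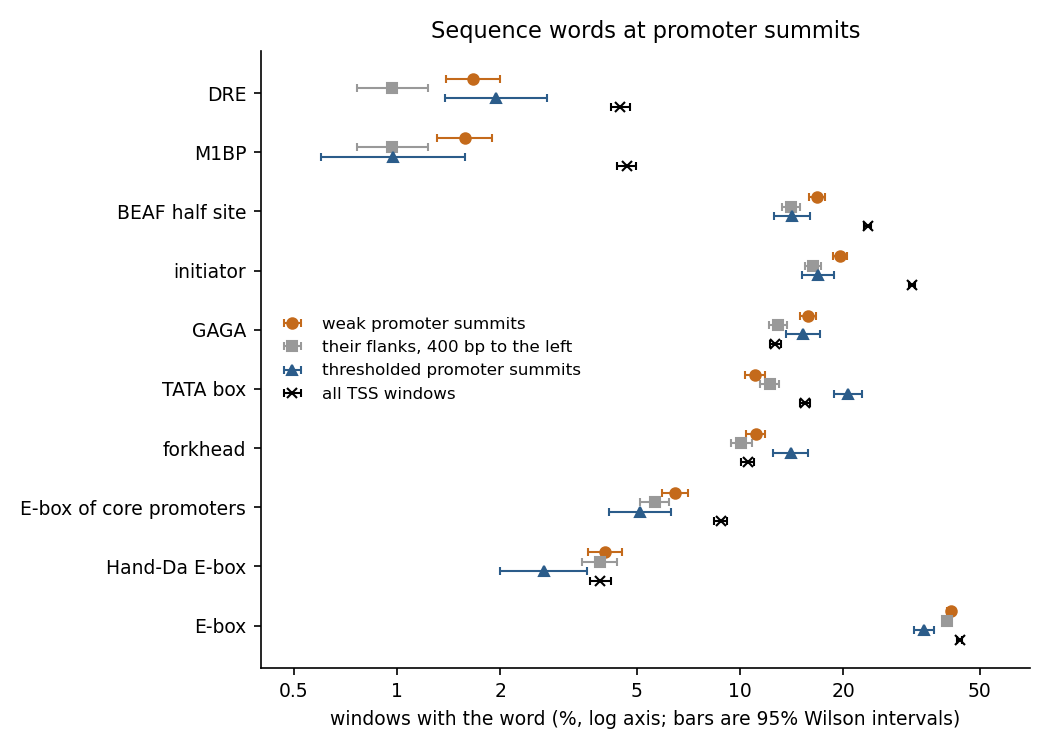
Share of windows that hold a sequence word (horizontal log axis, %, bars are 95% Wilson intervals) at weak promoter summits, at their flanks, at thresholded promoter summits and at all TSSs, for 10 of the 20 words. The TATA box stands at 11.1% of weak and 20.7% of thresholded summits, and the DRE at 1.66% and 1.95%.

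Weak promoter peaks were less often at promoters with start sites on both strands, where neighbouring genes can be transcribed away from each other. Such promoters held 18.0% of weak summits (17.2 to 19.0) against 25.2% of thresholded ones (23.2 to 27.4), and 23.3% of all TSSs had a start site of the other strand within the same distance. The replicates' own lists had 17.3% ± 1.502 for weak and 24.1% ± 1.92 for strong peaks, a difference of −6.82 percentage points ± 0.417 (SD, n = 2). For peaks the start sites were counted from the summit, and for all TSSs from the TSS. Weak and thresholded summits also differed in their upstream share, 49.9% against 72.4%. The part of summit position in these shares was not tested.

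Counted by gene, 5838 of 13945 protein-coding genes (41.9%) had a weak promoter peak, and 4961 (35.6%) had one and no thresholded promoter peak. The weak peak recurred in both replicates for 2614 genes (18.7%), and 1855 genes (13.3%) had a thresholded promoter peak. Of the 1855, 877 (47.3%) also had a weak one, and these were 15.02% of the genes with a weak one. The share rose with the number of annotated start sites, from 34.1% of genes with 1 TSS to 56.3% with 2 and 79.3% with 3 or more. Most genes with a weak promoter peak had 1 of them (3989 genes), and 153 had 4 or more. Tlk, which codes for a chromatin kinase, and mtd had 9 each, over 8 and 11 start sites. Rtnl1, the reticulon gene, had 8. CG12963, CG32813, the RNA-binding protein gene Imp, LRR and sd had 7 each, and CAP and Eip63F-1 had 6.

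All 6 main arms carried weak promoter peaks. Arm 2R had the most per Mb, 59.7, and of the large arms 3L had the fewest, 46.03. Per 1000 start sites the X had 395 and 2L had 331, and the small arm 4 had 148, from 21 peaks.

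Gene lists were read against those background shares, and 14 of 22 lists were above 41.9%, 4 of them with an interval wholly above it. The mean number of start sites per gene ran from 1 in the Jonah list to 2.35 in the neuronal list, so the share among genes with 1 TSS is given beside, against 34.1% of all such genes. On that share 14 lists were also above the background, again 4 with an interval wholly above it. The part of the number of start sites in a list's share was not tested.

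Genes of signalling pathways, neurons, blood and visceral muscle stood highest when all genes of a list were counted, and among genes with 1 TSS the signalling, Mediator and TFIID lists did. With all genes counted, TFIID was below the background with a 200-bp promoter window, at 18.8% against 28.5%. Mediator was below it for peaks in both replicates, at 13.8% against 18.7%. The weak peaks of TFIID had a median signal of 27.3. Of 34 signalling components, 25 (73.5%, 56.9 to 85.4) had a weak promoter peak, in both replicates for 15 (44.1%), and of those with 1 TSS 11 of 16 did (68.8%, 44.4 to 85.8). The list has 1.94 start sites per gene against 1.41 over all genes, and its weak peaks had a median signal of 55.0 against 42.3. A thresholded promoter peak was at 29.4% of its genes, against 13.3% of all genes. In it were Stat92E, the JAK-STAT transcription factor gene (pooled 88.2, replicates 19.5 and 67.2), aos, and Socs36E, an inhibitor of that pathway (84.4, with 31.3 and 68.4). Stat92E stood at rank 12667 in replicate 2 and 2724 in replicate 3, Socs36E at 4762 and 2643, and aos at 833 and 4500. A thresholded summit lay 201 bp from the peak at aos, 207 bp from that at Socs36E and 1081 bp from that at Stat92E. Of 26 neuronal genes 19 had one (73.1%), and of those with 1 TSS 4 of 10 (40.0%), close to the 34.1%. The strongest in that list were the sodium channel gene para (pooled 90.3), the GABA receptor gene Rdl (84.9) and moody (83.1), a receptor gene of the blood-brain barrier. The peak at moody lay 202 bp from a thresholded summit. Over the neuronal list the weak peaks had a median signal of 33.2, below the 42.3 of all members. Of 24 blood and lymph gland genes 17 had one (70.8%, 50.8 to 85.1), and of those with 1 TSS 5 of 10, with an interval of 23.7 to 76.3. Among the 17 were Stat92E, which is also in the signalling list, zfh1 and ush, which are also in the heart list, and srp at 24.4. The other 7, gcm2, Hml, NimC1, eater, PPO1, PPO2 and Pxn, had no thresholded promoter peak either.

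The visceral muscle genes with a weak promoter peak had no thresholded one, where 15.02% of all genes with a weak one did. Of 22, 14 had a weak peak and no thresholded one (63.6%, 43.0 to 80.3), against 35.6% of all genes. Of the others, 1 (4.55% of the list) had a thresholded peak, against 13.3% of all genes. These differences were not tested. The strongest weak peak was at jeb, which codes for a secreted ligand, at 72.6. At jeb the signal was 40.9 in replicate 2, at rank 2746, and 28.8 in replicate 3, at rank 11243. Its receptor gene Alk had 55.9, found in replicate 2 alone at 34.2. The FGF receptor gene htl had 71.2 (28.3 and 49.6), and the genes of its ligands, pyr and ths, had 65.5 and 25.3, the first found in replicate 3 alone at 50.4 and the second in neither. Among genes of the list with 1 TSS, 6 of 11 had a weak promoter peak (54.5%, 28.0 to 78.7).

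Heart genes stood near the background, with 11 of 25 (44.0%, 26.7 to 62.9), and 7 (28.0%) had a thresholded promoter peak against 13.3% of all genes. Of heart genes with 1 TSS 4 of 15 had a weak promoter peak (26.7%). The strongest weak peaks of the list were at kay, the Fos gene (88.6, found in replicate 3 alone at 75.8), at ush, the gene of a GATA cofactor (74.6, with 41.9 and 41.1), and at zfh1, a zinc-finger homeodomain gene (67.5, found in replicate 2 alone at 27.0). Those of kay and ush lay 200 and 205 bp from a thresholded summit. The ush peak stood at rank 2599 in replicate 2 and 6455 in replicate 3. Without a thresholded promoter peak were the weak ones at pnr, the GATA factor gene of the heart (56.7, 13 bp upstream, 19.6 in replicate 2 and none in replicate 3), and at svp, a nuclear receptor gene (58.9, 78 bp upstream, 24.2 and 26.1). The genes tup, with 33.6, and kuz, with 48.6, were the others beside zfh1. The svp peak stood at rank 8079 in replicate 2 and 12993 in replicate 3.

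The partner gene da had 2 weak promoter peaks. The one 60 bp downstream of the TSS had a pooled signal of 75.1, with 29.2 in replicate 2 and 41.8 in replicate 3. The one 336 bp downstream had 46.5, with 26.3 in replicate 2 and none in replicate 3. Both summits lay in the 5′ UTR, and neither had an E-box within 50 bp. No weak promoter peak was found at Hand itself, mid, H15, Doc1, Doc2 or Doc3, or at tin, whose promoter peak was thresholded at 122.8. The nearest pooled summit to a TSS of Hand was 1512 bp away, with a signal of 40.2. Of 13 pericardial and nephrocyte genes 6 had a weak promoter peak (46.2%, and 3 of 8 with 1 TSS), with the receptor gene mgl highest at 88.8 (35.5 and 48.8) and the nephrin gene sns at 53.2 (21.7 and 32.0). Of 24 muscle identity genes 10 did (41.7%, and 5 of 14 with 1 TSS), led by sd at 92.1 (42.5 and 38.0), Ptx1 at 79.7 and Poxm at 74.5. By rank, sd stood at 2514 in replicate 2 and 7336 in replicate 3.

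Of 9 housekeeping lists, 8 were above 41.9%, and the interval of each held that value. Joined, a grouping chosen after their values were seen, they had a weak promoter peak at 48.2% of 452 genes (43.7 to 52.8), which was 38.9% in replicate 2's own list and 54.0% in replicate 3's, against 37.0% and 44.0% of all genes. The share was 51.1% of 92 cytosolic ribosomal protein genes (41.0 to 61.1), 46.6% of 73 mitochondrial ones, 51.7% of 89 genes of the respiratory chain and ATP synthase, and 41.7% of 48 proteasome genes. It was 43.2% of 44 translation initiation factor genes, 42.4% of 33 genes of tRNA ligases, 55.2% of 29 Mediator genes, 56.2% of 16 TFIID genes and 46.4% of 28 replication genes. Among genes with 1 TSS, 139 of 316 had one (44.0%, 38.6 to 49.5), and 3 lists had an interval wholly above 34.1%. These were the Mediator genes with 14 of 24 (58.3%, 38.8 to 75.5), the cytosolic ribosomal protein genes with 25 of 47 (53.2%, 39.2 to 66.7) and the mitochondrial ones with 31 of 67 (46.3%, 34.9 to 58.1). TFIID had 8 of 14 (57.1%), the respiratory chain 23 of 54 (42.6%), replication 9 of 21, the tRNA ligases 9 of 24, the proteasome 13 of 36 (36.1%) and the initiation factors 7 of 29 (24.1%). The thresholded share ranged more widely, against 13.3% of all genes. It was 64.1% for cytosolic ribosomal proteins and 5.62% for the respiratory chain, with 0 of 28 replication genes. A weak promoter peak and no thresholded one was found at 21 of the 92 cytosolic ribosomal protein genes (22.8%), against 35.6% of all genes. With a promoter window of 200 bp, 28.3% of that list had a weak promoter peak, against 28.5% of all genes. In replicate 2's own list 35.6% of the mitochondrial ribosomal protein genes had one, against 37.0% of all genes. Among cytosolic ribosomal protein genes, RpS2 had 88.4, found in replicate 2 alone at 31.4, and RpLP2 had 87.4 (42.1 and 49.4). The strongest respiratory chain member was ND-MWFE at 90.2, found in replicate 3 alone at 56.1, followed by ATPsynE at 85.7 (17.0 and 62.0) and ATPsyngamma at 80.1 (22.3 and 51.7). By rank, RpLP2 stood higher in replicate 2, at 2578 against 4703, and ATPsynE and ATPsyngamma in replicate 3, at 3145 against 17030 and 4315 against 9591.

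Among the other housekeeping lists, mRpL21, mRpL9 and mRpL53 led the mitochondrial ribosome with 86.3, 85.4 and 84.1. Rpn13, Rpn5 and Rpn9 led the proteasome with 83.8, 83.0 and 73.3. The initiation factor genes eIF2D, eIF2A and eIF3m had 89.9, 81.4 and 77.0, and the tRNA ligase genes ArgRS-m, AspRS and HisRS had 90.1, 89.2 and 58.2. In Mediator, MED25, MED6 and skd had 83.2, 66.6 and 61.0. In TFIID, Taf12 had 51.4, and 1 peak with 42.7, in a coding exon, lay 138 bp downstream of the Taf10b TSS and 183 bp upstream of that of Taf10 and counted for both. The replication genes dup, with 79.2, and Mcm2 and RPA1, which share a peak of 75.3, led theirs.

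Genes of sensory receptors, cuticle proteins and digestive proteases had the lowest shares. Of 179 genes of odorant, gustatory and ionotropic receptors, 15 had one (8.38%, 5.14 to 13.4), and of those with 1 TSS 13 of 167 (7.78%). None of the 179 had a thresholded promoter peak. Of 51 odorant-binding protein genes 4 did (7.84%), of 70 cuticle protein genes of the Cpr family 6 (8.57%, 3.99 to 17.5) and of 16 Jonah serine protease genes 2 (12.5%). With 1 TSS they had 3 of 42, 4 of 63 and 2 of 16, and the interval of the Jonah list, 3.50 to 36.0, holds 34.1%. The receptors had, in the replicates' own lists, 13.4% in replicate 2 and 5.59% in replicate 3, against 37.0% and 44.0% of all genes. The strongest were Gr21a, a carbon dioxide receptor gene (53.6, with 20.4 and 31.4), Ir60e (52.6) and Gr77a (49.5), and Obp99b had 85.6. Below it were Obp83g with 48.6 and Obp83cd with 32.4, Cpr62Ba with 48.8, Cpr51A with 34.9 and Cpr78Ca with 33.4, and Jon25Biii with 37.4 and Jon65Aiv with 35.9.

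Cytochrome P450 genes were below the background over all genes but not separably among those with 1 TSS. Of 83 P450 genes 25 had a weak promoter peak (30.1%, 21.3 to 40.7), and of those with 1 TSS 20 of 70 (28.6%, 19.3 to 40.1). The strongest were Cyp12a5 at 91.0, Cyp9f2 at 81.4 and Cyp305a1 at 71.2. Of 28 Hox and segmentation genes 8 had a weak promoter peak (28.6%), with an interval of 15.3 to 47.1 that holds 41.9%. In replicate 2's own list 39.3% of them did, against 37.0% of all genes, and in replicate 3's 28.6% against 44.0%. With 1 TSS 4 of 17 did (23.5%). A weak peak that recurred in both replicates was found at 0 of the 28 genes, against 18.7% of all genes. The strongest weak peaks were at hry, a segmentation repressor gene (63.6, found in replicate 3 alone), wg, the Wnt ligand gene (55.5, found in replicate 2 alone), and Kr (54.7, found in replicate 3 alone).

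**Figure D5:**
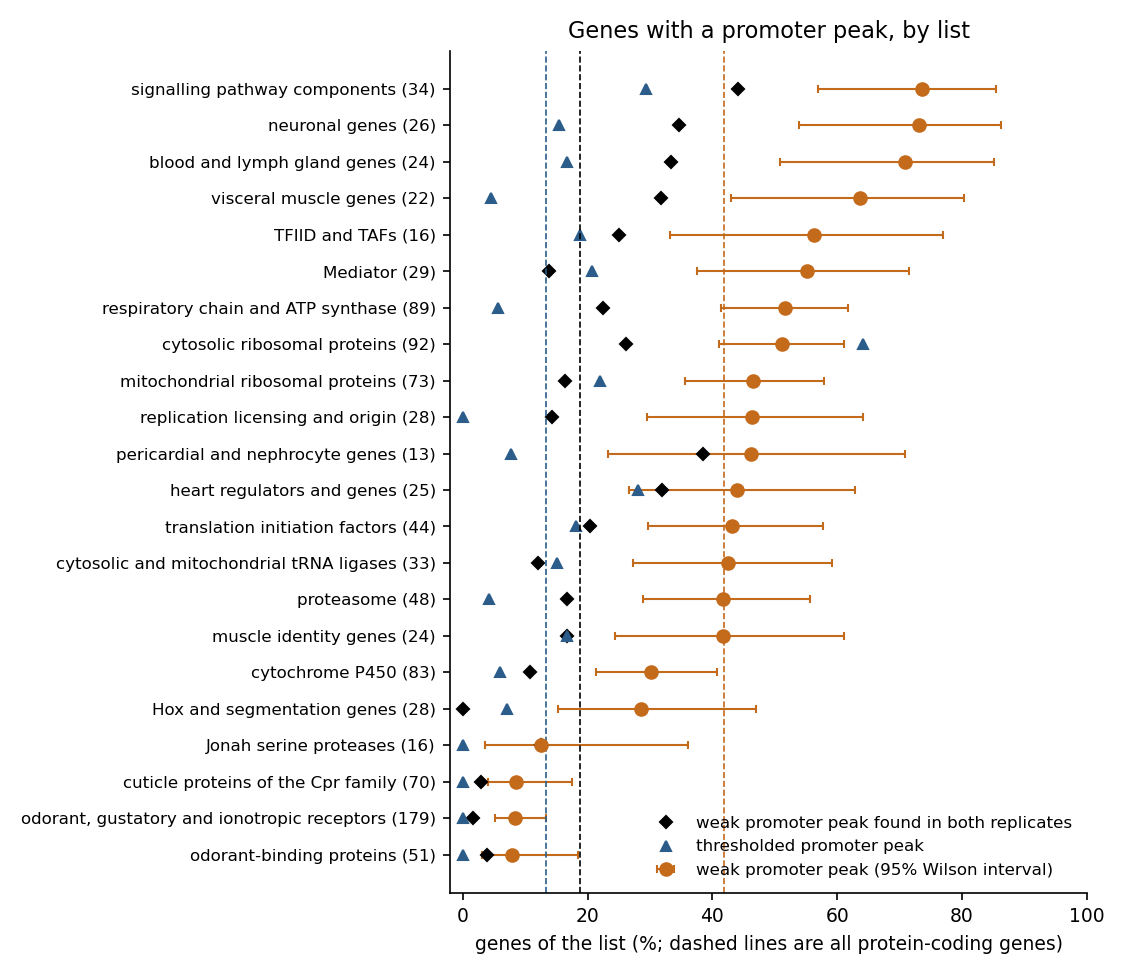
Share of genes (horizontal axis, %) with a weak promoter peak, with one that recurs in both replicates and with a thresholded promoter peak, in 22 gene lists (number of genes in parentheses). Dashed lines mark the shares over all protein-coding genes, 41.9%, 18.7% and 13.3%, and the sensory receptor, odorant-binding, cuticle and Jonah protease lists lie at 12.5% or below.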

How the data were processed

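Hand-GFP chromatin immunoprecipitation was measured in 2 biological replicates of whole embryos. The authors called peaks per replicate and on pooled reads, with a control alignment common to both, per the file listing, and compared the lists for reproducibility (IDR) to make the thresholded one. The sources used here name no aligner, caller or settings. Each deposited peak carries a signal, which the caller assigned, and a q-value, deposited as −log10. Signal was used only to rank and describe peaks within a list. Depth is unknown, so no interval covers counting error in reads, and Wilson 95% intervals cover the number of peaks or genes only. No column of another sample was set aside (0 columns), and the dm3 lists served only for counts.

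Analyses used dm6 coordinates counted from 1, the RefSeq sequence of dm6 and Ensembl protein-coding transcripts on 6 arms, in Python 3.11.15 with numpy 2.4.6, pandas 2.3.3, scipy 1.17.1 and matplotlib 3.10.9. Of the pooled rows, 3312 shared a thresholded position, since 2 of the 3310 positions occur in a second row. A gene had a weak promoter peak if a weak summit lay within 500 bp of any of its start sites. The members, gene lists and words were chosen with earlier results of these data known. Of the list symbols, 2 matched no gene and 2 matched by a synonym. Genes named were those nearest to the 15 strongest and 5 weakest members and to the 10 members with the highest lower replicate signal, the 10 genes with most members, the 3 genes of each list with the strongest weak peak, and Hand, da, tin and 7 heart regulators. A gene that this rule names is not reported here. Members of the heart, visceral muscle and blood lists named beyond these were chosen after their values were seen, as were the threshold neighbours. These members were tup, kuz, Alk, ths, srp and the 7 blood genes with no promoter peak. Distances, matches and word search were tested on simulated data, where all 2000 placed summits and all 500 implanted words were recovered. Alternatives were promoter windows of 200 and 1000 bp, 1 TSS per gene, other match distances, stronger or weaker peaks, other word windows and flanks, and each replicate's own list.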

Additional observations from a re-analysis of the deposited data

How the results depend on the processing

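Of 63 alternatives other than word ratios, 42 stayed within 1.5 times for counts, within 1 SD between the replicates' lists or, where there is no replicate value, within the interval, and 21 moved by more. Promoter windows of 200 and 1000 bp gave 16.003% and 36.1% of the peaks below the threshold in place of 26.0%, and 1 TSS per gene gave 19.8%; the 200-bp window left 4271 members. The median distance became 75 and 246 bp and the share at start sites of both strands 8.59% and 24.6%, by construction of the windows. The upstream share was 46.8% with 1000 bp, 46.4% with 1 TSS per gene and 52.5% for peaks in both replicates. The lists of single replicates gave 140 to 169 bp for the median distance, 47.6% to 50.6% upstream and 16.2% to 18.4% with start sites on both strands. Recurrence in both replicates was the most sensitive value, at 22.8% with summits within 50 bp, 58.0% within 250 bp and 66.8% for peaks sharing 1 bp; members above the median signal gave 58.0% and those below it 13.7%. Thresholded summits lay within 500 bp of 7.20% and within 2000 bp of 21.2%. For the 5 words with separate intervals, the ratio to flanks stayed above 1 in 25 of 25 alternatives, and over all 20 words it crossed 1 in 6 of 100. For the Hand with Daughterless form, 1.04 became 0.986 with 100 bp on each side, 0.986 with the right flank and 0.968 in replicate 2's list. The Zelda and Tinman words had a main ratio of 1 and are not among the 6. Their alternatives ran from 0.767 to 1.24 and from 0.896 to 1.38. Of 22 gene lists, 13 kept their side of the background in all 5 alternatives. Not among them were the cytosolic and mitochondrial ribosomal, proteasome, tRNA ligase, Mediator, TFIID, replication, muscle identity and Hox lists. The mitochondrial ribosomal list was below the background in replicate 2's list and, at 16.4% against 18.7%, for peaks in both replicates. No paired analysis was possible because all samples belong to 1 group, so no groups share replicate numbers; weak minus strong was taken within each replicate's list. The unknown depth and the 2 replicates limit all of these values.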
